A study of Mus musculus with 4 samples.

Results

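Transcripts of 10 mesenchymal genes were measured in primary macrophages grown from the bone marrow of C57BL/6 mice. The genes were chosen by symbol, with earlier results of these data known. They are the surface protein genes Pdgfra, Pdgfrb and Thy1, the contractile genes Acta2, Tagln, Myl9, Cald1, Tpm1 and Tpm2, and the transcription factor gene Twist1. Each symbol matched 1 Ensembl identifier, so 10 of the 34745 genes in the deposited count table are described. There were 2 libraries from cells transfected with Acly-E14 siRNA, a small interfering RNA named for the gene of ATP citrate lyase, and 2 libraries from cells transfected with control siRNA. All 4 cultures also received lipopolysaccharide (LPS), a bacterial cell wall component that activates macrophages, and no culture without LPS or without transfection was analysed here. The labels give neither dose, time, sex nor age, do not spell out E14, and do not say whether replicate libraries stem from different mice or cultures. The p-values therefore reflect the variation among these 4 libraries, part or all of which could be technical.

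Mesenchymal cells such as fibroblasts, pericytes and smooth muscle cells take up signals of platelet-derived growth factor (PDGF) through a pair of receptor tyrosine kinases, encoded by Pdgfra and Pdgfrb, and carry the GPI-anchored glycoprotein Thy1 on their surface. When they take on a contractile state they build stress fibres from smooth muscle actin, tropomyosins, myosin light chain and the actin-binding proteins transgelin and caldesmon. The genes of that programme are classical targets of serum response factor (SRF), which binds the CArG box, and of its myocardin-related cofactors. Twist1 is a basic helix-loop-helix factor of mesenchyme that binds E-boxes. Macrophages use the non-muscle relatives of these proteins for movement and phagocytosis.

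The promoters are shown for the contractile genes that held a CArG box or a near match. RefSeq promoter windows (GRCm38.p6, from 250 bases before to 50 bases after an annotated start) were found for 7 of the 10 genes, with 8 windows in all, and both strands were searched. The exact CArG box was in the window of Myl9 alone among these 7 genes, and in 1.63% of 32851 windows of all genes. With at most 1 mismatch in its A/T core it was in the windows of Myl9 and Acta2, and in 9.98% of all windows. The Acta2 window is chr19:34255324-34255623 on the minus strand and the Myl9 window chr2:156775214-156775513 on the plus strand. The capitals mark the exact box, which starts 161 bases before the Myl9 start, and the near matches, which start 99 bases before the Myl9 start and 84 and 34 bases before the Acta2 start.
Acta2: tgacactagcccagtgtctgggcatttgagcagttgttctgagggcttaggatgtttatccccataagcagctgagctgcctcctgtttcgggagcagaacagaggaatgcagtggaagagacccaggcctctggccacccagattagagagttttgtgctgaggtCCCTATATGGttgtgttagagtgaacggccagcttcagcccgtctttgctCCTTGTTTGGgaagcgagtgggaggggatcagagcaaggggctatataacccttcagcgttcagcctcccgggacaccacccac
Myl9: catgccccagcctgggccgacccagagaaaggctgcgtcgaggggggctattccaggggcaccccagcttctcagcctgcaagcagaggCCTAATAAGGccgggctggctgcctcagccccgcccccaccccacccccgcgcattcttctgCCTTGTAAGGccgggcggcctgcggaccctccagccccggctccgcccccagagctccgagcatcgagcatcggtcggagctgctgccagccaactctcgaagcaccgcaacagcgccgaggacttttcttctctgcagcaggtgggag
The E-box CANNTG was in the windows of 6 of the 7 genes, all but Twist1, against 72.3% of all windows. The motif CATTCC, the core of the site bound by TEAD factors, was in those of Acta2, Cald1 and Tpm1, against 14.7% of all windows. The motifs were searched independently, and a match describes the letters of the window only.

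All 10 genes were higher in the Acly-E14 siRNA libraries than in the control siRNA libraries. By edgeR's quasi-likelihood test, with p-values adjusted over all 13108 genes tested, each of the 10 was past an adjusted p of 0.05, and 0 were lower. Of all tested genes 17.3% were higher and 15.9% lower by the same rule. In each of the 10 genes both Acly-E14 siRNA libraries lay above both controls, as they did in 35.3% of tested genes. The median of the 10 log2 fold changes was 1.39, against 0.0027 over all tested genes. Beyond 1 on the log2 scale were 8 of the 10, against 7.49% of tested genes. As the 10 genes were chosen with earlier results known, these comparisons with all tested genes are descriptive only. Together the 10 genes took 0.0919% and 0.111% of the counts in the Acly-E14 siRNA libraries and 0.0375% and 0.0509% in the controls.

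**Figure D1:**
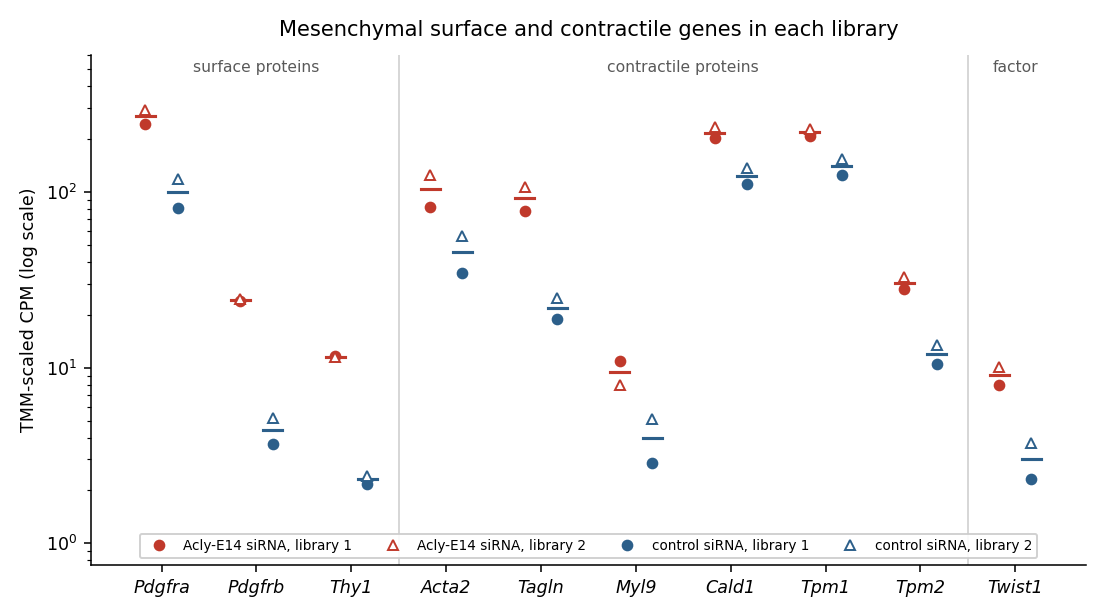
Level of each gene in each library in CPM (counts relative to the depth of the library, TMM-scaled) on a log axis, with circles for library 1, triangles for library 2 and a bar at the group mean. In every gene both Acly-E14 siRNA points lie above both control siRNA points, closest on this axis for Tpm1 (208 against 155 CPM).

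Pdgfra (chromosome 5, 75152292 to 75198215, plus strand in mm10) encodes PDGF receptor alpha, typical of fibroblasts and stromal progenitors. It had 244 and 293 CPM with Acly-E14 siRNA, against 81.3 and 118 CPM in the controls. It rose 2.70-fold (log2 1.43, SE 0.18, edgeR adjusted p = 0.0037). Exon bases of Pdgfra are shared with 2 annotated transcripts on the opposite strand, which held between 0 and 2 counts per library. A microRNA on the same strand shares 30 bases.

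Pdgfrb (chromosome 18, 61045150 to 61085061, plus strand) encodes PDGF receptor beta, typical of pericytes and smooth muscle cells. It had 23.9 and 24.7 CPM with Acly-E14 siRNA, against 3.68 and 5.19 CPM in the controls. The rise was 5.46-fold (log2 2.45, SE 0.17, edgeR adjusted p = 0.00089), the largest fold among the 10 genes, at rank 105 of the 13108 log2 fold changes. Per gene length Pdgfrb remained the lowest of the 10, at 3.26 ± 0.104 FPKM (counts scaled to depth and gene length; SD, n = 2) with Acly-E14 siRNA and 0.560 ± 0.144 FPKM with control siRNA. The Pdgfrb level was 19.0% and 16.4% of the Pdgfra level in the Acly-E14 siRNA libraries and 8.81% and 8.57% in the controls, so the share of the beta receptor was higher in both Acly-E14 siRNA libraries. For such a ratio the smallest two-sided p of an exact permutation test is 0.333 at 2 libraries per group.

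Thy1 (chromosome 9, 44043384 to 44048579, plus strand) had 11.6 and 11.5 CPM with Acly-E14 siRNA, against 2.19 and 2.43 CPM in the controls. It rose 4.97-fold (log2 2.31, SE 0.15, edgeR adjusted p = 0.00085), and its libraries differed least within the groups. In counts, the values were 253 and 251 against 44 and 52.

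Acta2 (chromosome 19, 34241090 to 34255590, minus strand) encodes smooth muscle alpha-actin, whose promoter is printed above. It had 82.4 and 124 CPM with Acly-E14 siRNA, against 34.6 and 55.9 CPM in the controls. The fitted rise was 2.28-fold, with a 95% interval of 1.43 to 3.62 (edgeR adjusted p = 0.022). Library 2 of each group was about as far above library 1 of its group as the lower Acly-E14 siRNA library was above the higher control. The call was lost without Acly-E14 siRNA library 2 (log2 0.86, edgeR adjusted p = 0.077), without control library 1 (log2 0.88, 0.089) and without a filter on low counts (0.058).

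Tagln (chromosome 9, 45929619 to 45936058, minus strand) encodes transgelin, an actin-binding protein of smooth muscle. It had 77.7 and 107 CPM with Acly-E14 siRNA, against 19.0 and 24.9 CPM in the controls. Its rise of 4.21-fold (log2 2.07, SE 0.19, edgeR adjusted p = 0.0018) was the largest of the 6 contractile genes. Tagln shares 108 exon bases with Pcsk7 on the opposite strand and 1241 with an antisense transcript, and the use of strand in the counting is not given in the sources used here. Pcsk7 itself had 1225 and 1250 counts with Acly-E14 siRNA and 1239 and 1222 with control siRNA, close to each other in all 4 libraries.

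Myl9 (chromosome 2, 156775420 to 156781658, plus strand), the smooth muscle regulatory myosin light chain gene, had 10.8 and 7.99 CPM with Acly-E14 siRNA, against 2.88 and 5.10 CPM in the controls. It rose 2.35-fold with the widest interval on the log2 scale, a fold of 1.42 to 3.88 (edgeR adjusted p = 0.025). The order of the libraries within the Acly-E14 siRNA group was opposite to that of Acta2 and Tagln. The call was lost without Acly-E14 siRNA library 1 (log2 0.999, edgeR adjusted p = 0.10), without control library 1 (log2 0.88, 0.080) and without a filter on low counts (0.057).

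Tpm2 (chromosome 4, 43514711 to 43523765, minus strand), the beta-tropomyosin gene, had 28.05 and 32.7 CPM with Acly-E14 siRNA, against 10.4 and 13.5 CPM in the controls, a rise of 2.53-fold (edgeR adjusted p = 0.0028). Tpm1 (chromosome 9, 67022590 to 67049406, minus strand), the alpha-tropomyosin gene, had 208 and 228 CPM with Acly-E14 siRNA, against 125 and 155 CPM in the controls, a rise of 1.56-fold (edgeR adjusted p = 0.0088). Cald1 (chromosome 6, 34598500 to 34775473, plus strand), which encodes the actomyosin inhibitor caldesmon, had 202 and 233 CPM with Acly-E14 siRNA, against 111 and 137 CPM in the controls, a rise of 1.76-fold (edgeR adjusted p = 0.0055). Tpm1 and Cald1 had the smallest rises of the 10 genes, and both are known to make non-muscle as well as smooth muscle isoforms, which counts per gene cannot separate. Their groups did not overlap.

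Twist1 (chromosome 12, 33957671 to 33959829, plus strand) had 8.01 and 10.1 CPM with Acly-E14 siRNA, against 2.33 and 3.74 CPM in the controls. It rose 2.97-fold, with a 95% interval of 1.92 to 4.60 (edgeR adjusted p = 0.0077), from 47 and 80 counts in the controls. Its relative Twist2, which has overlapping roles in mesenchyme, rose by a log2 change of 2.04 (edgeR adjusted p = 0.0035), at 3.61 and 3.38 CPM with Acly-E14 siRNA against 0.894 and 0.795 CPM with control siRNA. An antisense transcript shares exon bases with Twist2.

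Per gene length, the 10 genes spanned a wide range in both groups. With Acly-E14 siRNA, Tagln (60.2 ± 14.04 FPKM, SD, n = 2) and Acta2 (59.9 ± 17.7) stood highest and did not differ beyond their spread. Below them were Pdgfra (18.5 ± 2.54), Tpm1 (13.6 ± 1.02) and Cald1 (9.46 ± 1.05), which did not overlap one another. Thy1 (6.85 ± 0.0158), Twist1 (5.80 ± 1.02), Tpm2 (5.63 ± 0.656) and Myl9 (4.61 ± 0.945) lay close together, and Twist1, Tpm2 and Myl9 overlapped. With control siRNA, Acta2 led at 24.7 ± 8.56 FPKM, followed by Tagln (13.4 ± 2.76), Tpm1 (8.19 ± 1.35), Pdgfra (6.46 ± 1.78) and Cald1 (5.05 ± 0.832). The libraries of Tpm1 overlapped those of Pdgfra, and those of Pdgfra overlapped those of Cald1. Tpm2 (2.09 ± 0.412), Myl9 (1.84 ± 0.749), Twist1 (1.83 ± 0.625) and Thy1 (1.29 ± 0.117) were lower. Tpm2, Myl9 and Twist1 overlapped, and so did Thy1 and Myl9. Each of the 10 genes was thus counted in the control libraries too, with between 44 and 3304 counts per library.

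The libraries within a group also differed in these genes. Control library 2 was above control library 1 in 10 of 10 genes, by 1.11-fold (Thy1) to 1.77-fold (Myl9), while 50.6% of all tested genes were. Acly-E14 siRNA library 2 was above library 1 in 8 of 10 genes, the exceptions being Thy1 (0.990) and Myl9 (0.737), while 49.9% of all tested genes were. The median ratio of library 2 over library 1 was 1.16 with Acly-E14 siRNA and 1.36 with control siRNA for the 10 genes. Fibroblast marker genes outside the 10 had median ratios of 1.23 with Acly-E14 siRNA and 1.44 with control siRNA. Without control library 1, 8 of the 10 genes were called higher, against 8.68% of tested genes. Without Acly-E14 siRNA library 2, 9 of the 10 were, against 7.78% of tested genes, and without Acly-E14 siRNA library 1, 9 of the 10, against 11.0%.

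**Figure D2:**
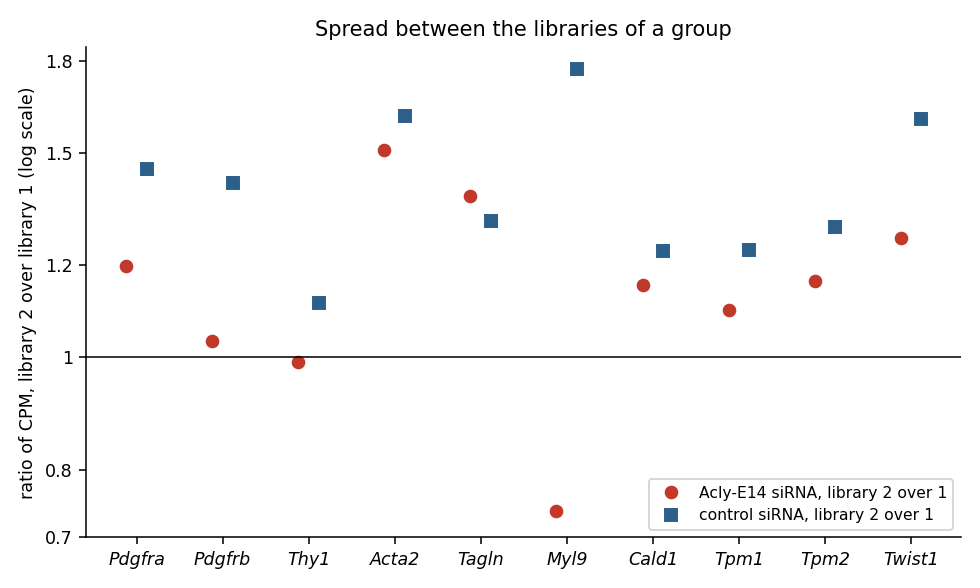
Ratio of library 2 over library 1 of the same group in TMM-scaled CPM on a log axis, with circles for Acly-E14 siRNA and squares for control siRNA and a line at 1. All 10 squares lie above 1, and 8 of 10 circles do, with the Myl9 circle lowest at 0.737.

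The non-muscle relatives of the contractile genes were compared in the same libraries. Tagln2, the transgelin of blood cells, was not called (log2 -0.13, edgeR adjusted p = 0.10), though it was called lower with a replicate block (0.041) and DESeq2 (0.020). Actb, which encodes beta-actin, was not called either (log2 -0.20, edgeR adjusted p = 0.055), though it was called lower with a replicate block (0.021), DESeq2 (0.00053) and without a filter on low counts (0.048). Actg1, the gamma-actin gene, fell by 0.39 on the log2 scale (edgeR adjusted p = 0.0042). The non-muscle light chain genes Myl12a (log2 0.27, edgeR adjusted p = 0.072) and Myl12b (0.11, 0.29) were not called, and they share near-identical sequence. Myl12a was called higher with library totals (edgeR adjusted p = 0.027) and DESeq2 (0.013). Tpm3 was not called (log2 0.15, edgeR adjusted p = 0.11), but was called higher with library totals (0.028). Tpm4 rose by 0.17 on the log2 scale (edgeR adjusted p = 0.045), a call lost whichever single library was left out (edgeR adjusted p of 0.13 to 0.21) and without a filter on low counts (0.061).

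**Figure D3:**
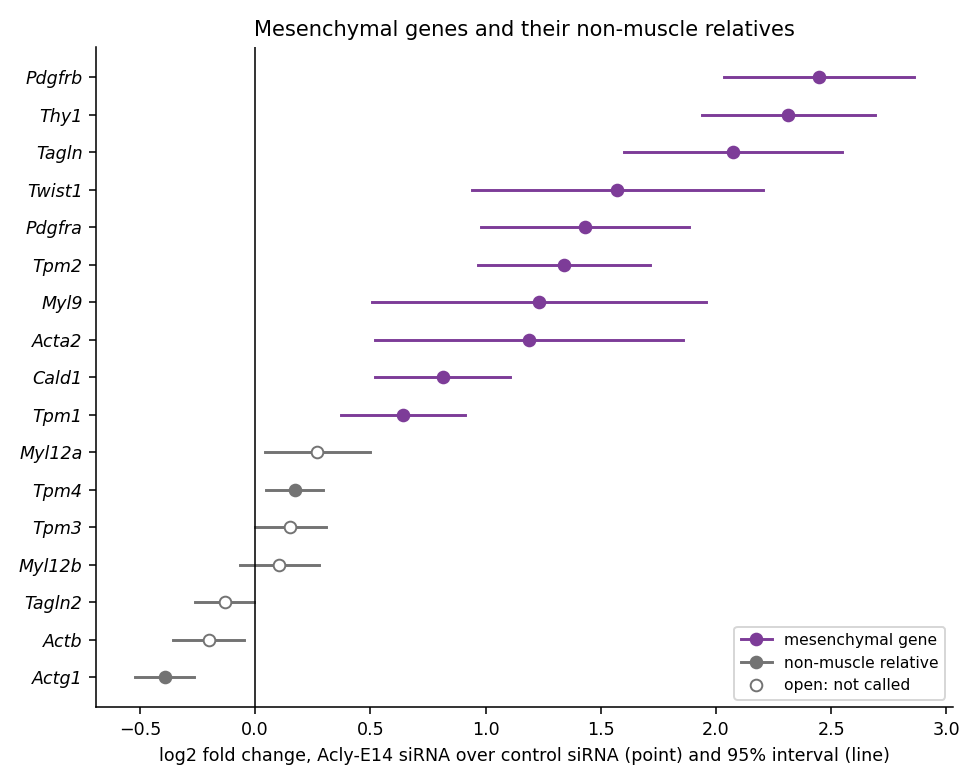
Log2 fold change of Acly-E14 siRNA over control siRNA with its 95% interval, for the 10 mesenchymal genes (purple) and 7 non-muscle relatives (grey), with open points for genes not called. The intervals of the 10 genes lie above 0, from 0.37 at the lowest bound (Tpm1). The point estimates of the 7 relatives lie between -0.39 and 0.27, and their intervals between -0.52 (Actg1) and 0.50 (Myl12a). The interval of Myl12a overlaps that of Tpm1, and those of Myl12a and Tpm4 also lie above 0.

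Ratios within a library do not depend on how libraries are scaled. Tagln stood at 28.1% and 39.5% of the Tagln2 level per length in the Acly-E14 siRNA libraries, against 6.20% and 8.45% in the controls. Acta2 stood at 10.02% and 15.9% of the Actb level, against 3.86% and 5.90%, and at 41.0% and 64.1% of the Actg1 level, against 13.3% and 21.6%. Reads of actin genes can be split between near-identical relatives, and Actg2, the enteric smooth muscle actin gene, had 0.824 and 0.822 CPM against 0.695 and 1.12 CPM. Myl9 stood at 7.86% and 5.30% of the Myl12a level, against 2.22% and 4.64%. Tpm2 stood at 40.1% and 42.5% of the Tpm1 level, against 24.8% and 26.0%, the least spread within groups among these ratios. Both Acly-E14 siRNA libraries were above both controls in each of these ratios. They were not for Twist1, which stood at 528% and 715% of the Twist2 level with Acly-E14 siRNA, against 623% and 1122% with control siRNA. The groups of that ratio overlapped. Several ratios share a gene and they restate the rises of single genes, so they are not separate observations.

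**Figure D4:**
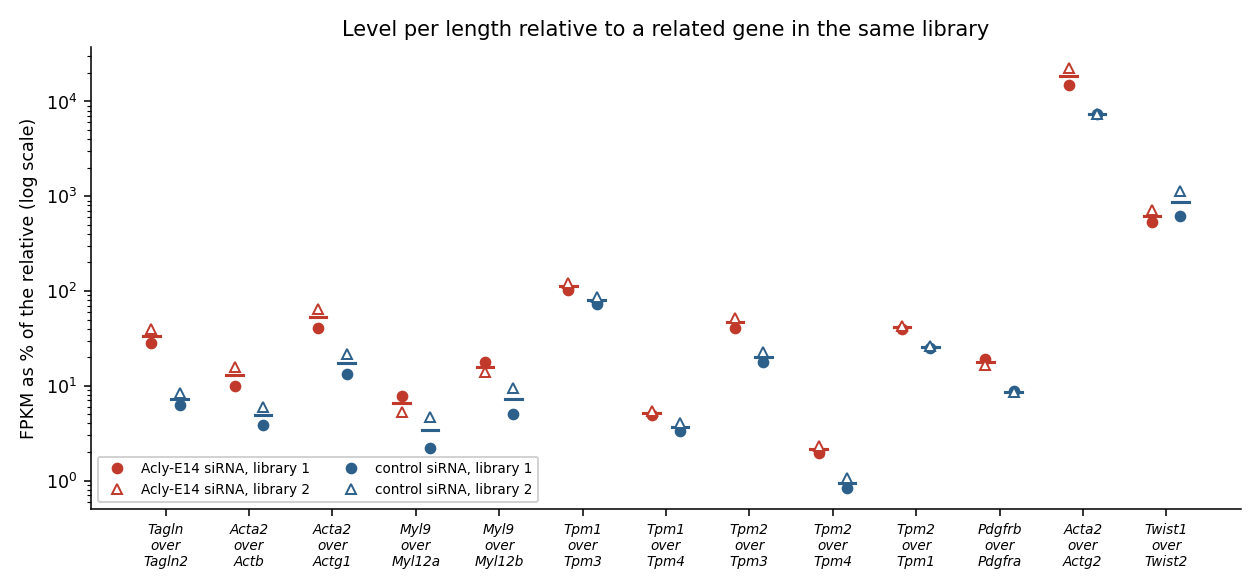
Level per length of a mesenchymal gene as a percentage of a related gene in the same library (log axis), with circles for library 1, triangles for library 2 and bars at group means. In 12 of the 13 pairs both Acly-E14 siRNA points lie above both control siRNA points, all but Twist1 over Twist2. An example is Tagln over Tagln2, with 28.1% and 39.5% against 6.20% and 8.45%. The pairs share genes and restate the rises of single genes, so the 12 are not separate observations.

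Other genes of the smooth muscle contractile apparatus were mostly higher as well. Of 25 such genes listed, 20 were tested, with a median log2 change of 0.89. Of these 20, 13 rose, 0 fell and 7 were not called, beside 17.3% higher and 15.9% lower among all tested genes. Without Acly-E14 siRNA library 2 the number of rises was 8. The 4 of smallest p were Cnn2 (1.70-fold) and Cnn3 (2.02-fold), which encode the broadly expressed calponins, Tgfb1i1 (5.39-fold), which encodes the focal adhesion adaptor Hic-5, and Csrp2 (2.94-fold), a LIM protein gene. Cnn1, the calponin of differentiated smooth muscle, was named after its values were seen. It had 1.83 and 2.97 CPM with Acly-E14 siRNA, against 1.59 and 2.81 CPM in the controls, so its groups overlapped (log2 0.12, edgeR adjusted p = 0.83). The 5 genes with too few counts to be tested, also named after their values were seen, were Myh11 (the smooth muscle myosin heavy chain gene), Lmod1, Pdlim3, Ppp1r14a and Pln. Myh11 had 6 and 10 counts against 1 and 5, Lmod1 8 and 4 against 7 and 7, and Ppp1r14a and Pln 0 in each library.

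Of 22 non-muscle actomyosin genes, all tested, 6 rose, 3 fell and 13 were not called, with a median of 0.07, beside 17.3% higher and 15.9% lower among all tested genes. With library totals in place of TMM factors 10 were higher. That setting moved the whole table up, with 21.2% of tested genes higher and a median log2 change of 0.0938. By DESeq2 9 were higher and 7 lower, beside 2337 higher and 2278 lower among all tested genes. Their summed level was 11391 and 11201 CPM with Acly-E14 siRNA, against 11247 and 11252 CPM in the controls. Those of smallest p were Zyx (zyxin, 1.76-fold), Myh9 (non-muscle myosin IIA, 1.71-fold), Myh10 (non-muscle myosin IIB, 2.02-fold) and Flna (filamin A, 1.45-fold), each of them higher.

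Among SRF and its partners, 1 of 6 tested genes rose and 1 fell, which is near the shares of all tested genes (17.3% higher and 15.9% lower). Elk3, an ETS partner of SRF, rose 2.34-fold, and the cofactor gene Mrtfb fell by 0.36 on the log2 scale (edgeR adjusted p = 0.027). The ETS partner gene Elk1 (log2 0.21, edgeR adjusted p = 0.20) and the cofactor gene Mrtfa (-0.15, 0.30) were not called. Srf itself had 32.1 and 35.1 CPM against 35.2 and 36.3 CPM, and was not called (named after its values were seen; log2 -0.09, edgeR adjusted p = 0.45). Myocardin (Myocd), also named after its values were seen, had 0 and 2 counts in the Acly-E14 siRNA libraries and 0 in each control.

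Genes of the YAP and TEAD pathway, another regulator of cytoskeletal genes, were higher too. Of 16 tested, 13 rose and 0 fell, with a median of 1.06, beside 17.3% higher and 15.9% lower among all tested genes. Ccn2, a classical target encoding connective tissue growth factor, rose 2.51-fold, the DNA-binding partners Tead1 and Tead3 rose 2.12-fold and 2.004-fold, and the cofactor gene Vgll3 3.18-fold.

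Of 22 other mesenchymal transcription factor genes, 15 were tested, with a median of 0.80. Of these 15, 8 rose and 1 fell, beside 17.3% higher and 15.9% lower among all tested genes. The paired-related homeobox genes Prrx1 and Prrx2 were among those of smallest p in this list. Prrx1 had 45.9 and 45.8 CPM with Acly-E14 siRNA, against 7.70 and 11.6 CPM in the controls (4.73-fold, edgeR adjusted p = 0.0013). Prrx2 rose 10.2-fold, on 12 counts in both controls together. Osr1 had 40 and 52 counts with Acly-E14 siRNA against 0 and 2 with control siRNA, a scaled ratio of 43.6 whose exact 95% counting interval runs from 11.7 to 366. Twist2, described with Twist1, was the other gene of smallest p.

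Of 26 other fibroblast and stromal surface genes, 24 were tested, with a median of 0.89. Of these 24, 15 rose and 2 fell, beside 17.3% higher and 15.9% lower among all tested genes. The adhesion molecule genes Ncam1 and Cdh11 rose 4.49-fold and 4.41-fold, the co-receptor gene Tgfbr3 8.67-fold and Cd34 4.27-fold. The 2 genes that fell, named after their values were seen, were Anpep (log2 -0.67, edgeR adjusted p = 0.0020) and Alcam (-0.28, 0.019). The summed level of the 26 genes was 3957 and 3990 CPM with Acly-E14 siRNA, against 3874 and 3857 CPM with control siRNA. Most of this sum came from Pdpn, Lrp1, Anpep and Alcam, with control means of 1072, 582, 1308 and 600 CPM. Pdpn and Lrp1, named after their values were seen, rose, while Anpep and Alcam fell. The sum therefore says little about the other genes of the list.

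**Figure D5:**
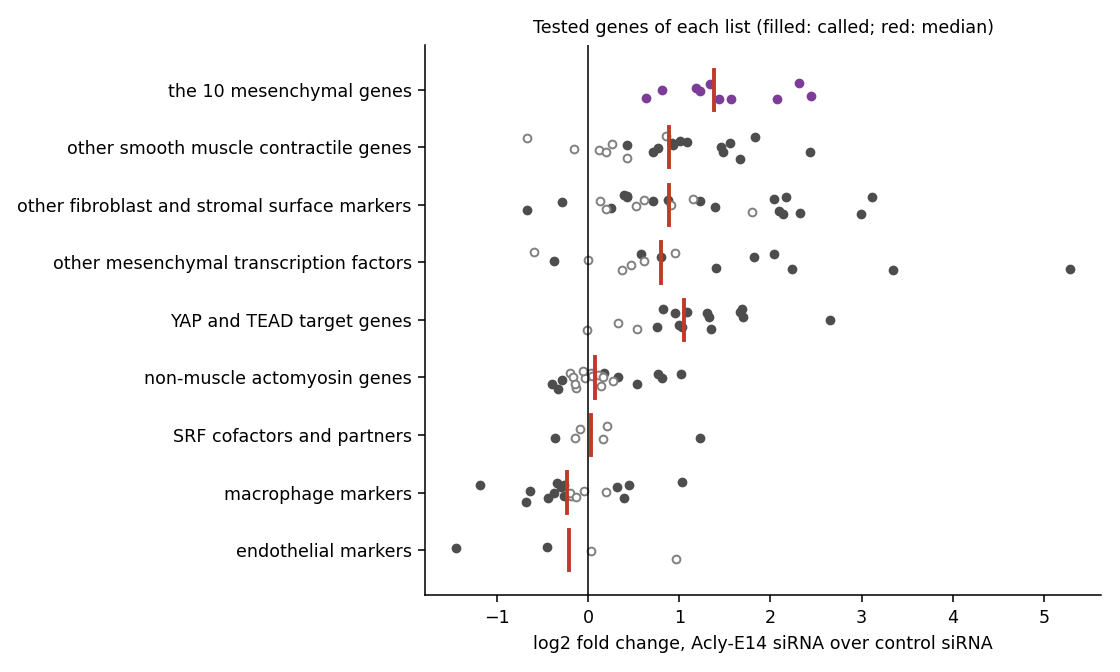
Log2 fold change of each tested gene in 9 groups (filled where called, open where not, red line at the median). The 10 mesenchymal genes have a median of 1.39, and the YAP and TEAD group has 1.06. The non-muscle actomyosin and macrophage groups have 0.07 and -0.23.

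Markers of other cell types were read in the same libraries. Their counts, here and in the next paragraph, stand beside 17.3% higher and 15.9% lower among all tested genes. Macrophage markers were abundant in all 4, with 18 of 18 tested, a summed level of 20465 and 20612 CPM with Acly-E14 siRNA against 22886 and 21296 CPM with control siRNA, and 4 higher and 9 lower. Cd14, the LPS co-receptor gene, rose 2.05-fold, while Mrc1, Cebpa and Cd68 had log2 changes of -0.63, -1.18 and -0.68. Of 15 fibroblast markers, 13 were tested and 9 rose and 0 fell. By edgeR at an unadjusted p under 0.05, and by DESeq2, 0 of the contractile, YAP and TEAD and fibroblast genes were lower as well. The summed level of the fibroblast markers was 4856 and 6008 CPM with Acly-E14 siRNA against 2318 and 3232 CPM with control siRNA. Serpinf1 rose 6.00-fold, Fbln2 2.74-fold, Col1a1 3.98-fold and Loxl1 3.74-fold. The part that fibroblast-type cells in the cultures have in these results was not tested. In RNA of a whole culture, more cells of a type and more RNA per cell cannot be told apart.

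Of 12 pericyte and vascular smooth muscle markers, only Cspg4, which encodes NG2, had enough counts to be tested, and it rose 8.39-fold from 6 and 6 counts in the controls. The 12 summed to 79 and 115 counts with Acly-E14 siRNA and 38 and 55 with control siRNA. Cspg4 alone held 39 and 69 of these counts with Acly-E14 siRNA. Both Acly-E14 siRNA libraries lay above both controls in 5 of the 12 and below both in 2, against 35.3% of tested genes each way. Those 2, named after their values were seen, were Abcc9 (2 and 3 against 14 and 7 counts) and Kcnj8 (5 and 5 against 7 and 16). Higd1b and Cox4i2 were at 0 in all 4 libraries. Endothelial markers had 0 of 4 tested genes higher and 2 lower by edgeR and by DESeq2, with 1 higher at an unadjusted p under 0.05 (Esam), with Kdr at a log2 change of -1.45 and Cdh5 at -0.45. Esam and Vwf were not called (log2 0.96 and 0.03), while Emcn, Cldn5 and Robo4 had no count in any library. Skeletal muscle markers summed to 60 and 89 counts against 73 and 69, with Myog and Myod1 at 0, and by edgeR and DESeq2 0 of 3 tested genes were called, with 2 higher at an unadjusted p under 0.05 (Mylpf, Actn3 and Tnni2, with log2 changes of 1.63, 1.49 and -0.67). Adipocyte markers had 2 of 2 tested genes lower (Fabp4 and Pparg, log2 -1.29 and -0.76), and Adipoq and Lep were at 0.

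The genes whose pattern over the 4 libraries was nearest to that of the 10 were found by the distance of their centred log2 CPM from the median profile of the 10. The 8 nearest with a mean of at least 5 CPM were Hspg2, Ctps, Scd2, Bcat1, Ppic, Cavin1, Mxra8 and Parva, at distances of 0.037 to 0.096 log2 units. Hspg2, which encodes the basement membrane proteoglycan perlecan, had 188 and 225 CPM with Acly-E14 siRNA against 61.8 and 89.7 CPM with control siRNA. Among the 10 themselves, Pdgfra (0.031) and Twist1 (0.054) lay nearest to the median profile and Pdgfrb (0.93) farthest from it.

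The targeted gene, Acly, had 118 and 127 CPM with Acly-E14 siRNA, against 158 and 154 CPM in the controls. It fell by 0.35 on the log2 scale (edgeR adjusted p = 0.0086, and 0.058 without control library 1), a smaller change than that of any of the 10 mesenchymal genes. Counts per gene cannot separate transcripts of Acly, and the labels do not spell out E14. The libraries held 21323438 and 21086129 counts with Acly-E14 siRNA and 21023197 and 21837806 with control siRNA.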

How the data were processed

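Whole-number counts per gene and library were deposited by the authors without normalization, per the file headers, beside FPKM values. HISAT2, StringTie 1.3.0, edgeR and build mm10 are named in the submitters' processing notes, without their roles. How reads were counted, and on which annotation, is not stated in the sources used here. The gene lengths behind the deposited FPKM were recovered from 3 of its columns. FPKM in all 4 libraries was then recomputed from the counts, and 1 FPKM column, which carries no replicate number, was not used. Symbols matched 34267 of 34745 identifiers. Gene positions come from GENCODE M21 (mm10).

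The comparison used edgeR 4.0.16 (R 4.3.3) with filterByExpr (minimum count 10), TMM factors, the quasi-likelihood F test without covariates, and Benjamini-Hochberg adjustment over 13108 genes. A gene was called at an adjusted p under 0.05. Standard errors follow from the F statistic, and CPM is TMM-scaled. Alternatives were a replicate block, leaving out each library, RLE factors, library totals, DESeq2 1.42.0, no filter, limma 3.58.1 on log2(FPKM + 1), an adjusted p under 0.1 and a log2 change beyond 1.

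The 10 genes and the lists were chosen with earlier results of these data known. Named in the text are the 10 genes, their relatives, the 4 genes of smallest p in each list, Acly, and the 8 nearest profiles (predicted genes left out). Of the 4 genes of smallest p in the lists described, 1 is not reported here. Other genes are said to have been named after their values were seen, or stand as examples of genes at 0. Replicate libraries were not duplicates: their chi-square over genes, divided by its degrees of freedom, was 11.7 (Acly-E14 siRNA) and 10.1 (control siRNA). The exact interval printed for Osr1 covers counting error only.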

Additional observations from a re-analysis of the deposited data

How the results depend on the processing

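The direction of all 10 mesenchymal genes was kept in every refit. All 10 were called higher with RLE factors (17.3% of tested genes), library totals (21.2%), DESeq2 (17.8%), limma on log2(FPKM + 1) (19.4%) and a replicate block (19.2%). No filter gave 8 of the 10, against 9.01%. Leaving out 1 library gave log2 changes from 0.49 (Tpm1) to 2.72 (Pdgfrb). An adjusted p under 0.1 and a log2 change beyond 1 reuse the main fit. The first therefore had to keep all 10 (against 22.5%). At the second, Cald1 and Tpm1 dropped out, leaving 8 (against 7.49%). The replicate numbers are shared only as numbers: over 13108 genes, the deviations of library 2 from library 1 in the groups had a correlation of 0.17, and 2 pairs are too few to show pairing. With the replicate block 2514 genes were higher and 2382 lower, against 2264 and 2090 without it. Leaving out 1 library gave 1045 to 1815 higher and 982 to 1400 lower genes, 8 to 13 rises among the other contractile genes and 4 to 5 among the non-muscle genes. Beyond 1 on the log2 scale there were 982 higher and 219 lower genes, 8 of the contractile and 1 of the non-muscle genes (Myh10). With limma on log2(FPKM + 1) 1313 genes were lower, and with library totals 10 non-muscle genes were higher. The share of rises among called genes was 52.0%, and 65.8% with library totals and 66.0% with limma. Actg2, not called, ranged from a log2 change of -0.45 to 0.24 when 1 library was left out, positive without control library 2. The cause of these shifts was not tested. At this depth 11 of 12 pericyte and vascular smooth muscle markers, 8 of 12 endothelial markers and 5 of the 25 other contractile genes had too few counts to be tested.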

Other observations

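Stromal genes of bone marrow moved in both directions. Of 15 stromal and osteoblast markers, 8 were tested, with a median log2 change of 1.11. Of these 8, 4 rose and 2 fell, beside 17.3% higher and 15.9% lower among all tested genes. Grem1, which encodes a secreted antagonist of bone morphogenetic proteins, had 127 and 135 CPM with Acly-E14 siRNA against 32.0 and 37.3 CPM with control siRNA (3.79-fold), and the intermediate filament gene Nes (nestin) rose 4.33-fold. In contrast, Kitl and Angpt1 fell by 0.91 and 0.72 on the log2 scale. The other genes of this list that rose, named after their values were seen, were Cxcl12 (3.50-fold) and Alpl (3.86-fold). The osteoblast genes Bglap and Ibsp had no count in any library.

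Of 15 genes of PDGF ligands and PDGF receptor signalling, 5 rose and 2 fell, with a median of -0.04, beside 17.3% higher and 15.9% lower among all tested genes. The ligand gene Pdgfb had 12.4 and 9.13 CPM with Acly-E14 siRNA against 41.8 and 35.3 CPM with control siRNA, a log2 change of -1.84 (edgeR adjusted p = 0.0017), while both receptor genes rose. The adaptor gene Gab1 rose 2.20-fold and the phosphatase gene Ptprj 1.48-fold, and the exchange factor gene Sos1 fell by 0.50 on the log2 scale. Of 16 genes of transforming growth factor beta signalling and response, 6 rose and 2 fell, with a median of 0.07. These counts too stand beside 17.3% higher and 15.9% lower among all tested genes. The latent TGF-beta binding protein genes Ltbp2 and Ltbp1 rose 7.01-fold and 2.24-fold, and the transcriptional repressor gene Bhlhe40 fell by 0.59 on the log2 scale.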
